A study of Mus musculus with 15 samples.

Results

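The 40 genes described here encode proteins of S phase, in which DNA is copied, and of mitosis, in which the copies are parted. They were taken by symbol from a list of 14 S phase genes and 26 mitosis genes, and all 40 were found among the 16729 genes of the deposited matrix. RNA-seq was performed on 15 samples of mouse endometrial organoids, cultures of uterine epithelial cells that grow as hollow bodies in Matrigel, to compare genetic with pharmacological inactivation of SMAD2/3. Control organoids (Smad2flox/flox; Smad3flox/flox) were grown with DMSO (control + vehicle, n = 3) or with A83-01 (control + A83-01, n = 4). Organoids of mice with the same floxed alleles and Ltfcre/+ were likewise grown with DMSO (*Smad2/3* cKO, n = 4) or with A83-01 (*Smad2/3* cKO + A83-01, n = 4). A83-01, an inhibitor of the kinases of the receptors ALK4, ALK5 and ALK7, was used at 500 nM. The mice were adult females, given in the paper's reporting summary as 6 to 8 weeks of age unless stated otherwise. The floxed alleles were present in every group, and Cre was driven by the lactoferrin gene, which is active in the uterine epithelium. The medium of all groups contained the growth factors EGF, FGF-10 and HGF with WNT3a, R-spondin and Noggin.

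In G1 the MCM helicase is loaded at origins of replication, and in S phase CDC45 and the GINS complex turn it into the moving helicase that opens DNA for the polymerases. Deoxynucleotides are supplied by ribonucleotide reductase and thymidylate synthase. Entry into mitosis is driven by CDK1 with cyclins A2, B1 and B2. The spindle checkpoint then holds back CDC20 and the ubiquitin ligase it activates until every kinetochore is attached. Many of these genes are transcribed in waves through E2F factors (S phase) or through the MuvB complex with B-MYB and FOXM1 (mitosis), so their RNA is often read as a measure of how many cells are cycling. In epithelia TGFβ signaling through SMAD2/3 is known for holding cells in G1. In bulk samples fewer cycling cells and less RNA per cycling cell cannot be told apart.

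Values are normalized counts, which are estimated counts per gene divided by a size factor per sample, and they summed to between 20241771 and 24423127 per sample. None of the 9 epithelial markers was at 0 in any sample, and *Epcam* was between 19889 and 28844. The control + vehicle sums of these markers ran from 162710 to 205394, those under the inhibitor from 114902 to 174575, those after deletion from 95263 to 145101 and those with both from 94365 to 131151, so both groups with the deletion lay below control + vehicle. After deletion 6 of the 9 were below 0 (median log2 fold change −0.37), and *Cldn4*, a tight junction gene, was called lower (−2.55, adjusted p = 0.00455). Of other cell types, the 4 smooth muscle markers measured had sums from 73.9 to 219.3 in control + vehicle, and lower without overlap under the inhibitor (29.9 to 55.06) and after deletion (36.71 to 62.93), with 30.42 to 86.55 under both. The most abundant of them in control + vehicle, *Acta2*, was called lower after deletion (−3.12, adjusted p = 0.00841). For the 6 stromal markers the sums ran from 27.42 to 190.7, from 4.79 to 54.69, from 2.958 to 24.69 and from 3.989 to 128.6 in the same order, and the 2 endothelial markers summed to at most 27.64. The part of these shifts in the results below was not tested. *Smad2*, a target of the deletion, was 1335, 1132 and 1045 in control + vehicle and 923.9, 862.8, 891.9 and 820.7 in *Smad2/3* cKO organoids, so the groups did not overlap. Its log2 fold change was −0.41 (SE 0.14, adjusted p = 0.0657), which did not pass the threshold. *Smad3*, the other target, was 1532, 1741 and 1599 against 1170, 1640, 1516 and 1977, and the groups overlapped. Each value covers the gene as a whole, so loss of the floxed exons is not visible in it.

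Several libraries stood apart. *Smad2/3* cKO replicate 2 carried macrophage transcripts, with *Lyz2* at 3372, *Adgre1* at 350.8 and *Cd52* at 112.4, where the other *Smad2/3* cKO samples were at most 86.86, 7.76 and 7.209. Of the 5 immune markers, *Cd68* was the most abundant in every other sample. The list summed to 1257 to 2554 in the control + vehicle samples. Its sum was 3167 to 8351 under A83-01 in control organoids, 1957 to 7402 after deletion and 3839 to 7538 with both. *Ptprc*, the leukocyte marker CD45, was 12.53 to 38.55 in control + vehicle and 68.54 to 513.5 in the other 12 samples, so it separated the groups as *Rrm2* does below. It was the 1 of 5 immune markers called higher after deletion (20%, against 7.38% of all genes; log2 fold change 3.33, SE 0.46, limma adjusted p = 0.00228). With A83-01 in control organoids none of the 3 immune markers tested was called, and at an adjusted p below 0.05 *Ptprc* (7.05-fold, adjusted p = 0.0190) and *Cd68* (2.83-fold, adjusted p = 0.0340) were higher and *Lyz2* (0.152-fold, adjusted p = 0.0223) lower. The part of these transcripts in the results was not tested. *Cd52* was at 0 in all 3 control + vehicle samples. *Adgre1*, which marks macrophages, was at 9.006 or less in every sample but *Smad2/3* cKO replicate 2.

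All 40 genes were at 10 or more in every sample and passed the filter on low values in every comparison. Means over the 15 samples ran from 71.33 for *Ung* to 11323 for *Rrm2*, with a median of 1286. The standard deviation within groups was 0.29 on the log2 scale at the median of the 40 genes, against 0.36 for the 13066 genes with a mean of at least 10. It was lowest for *Pcna* (0.17) and highest for *Cenpf* (0.74). As background, *Pcna* encodes the clamp that holds polymerases on DNA, and *Cenpf* a large kinetochore protein.

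*Rrm2*, which encodes the small subunit of ribonucleotide reductase whose supply limits the enzyme in S phase, was the only member called. Its normalized counts were 2799, 3009 and 3895 in control + vehicle. They were 10112, 8056, 15224 and 13580 in control + A83-01, 16367, 10152, 9976 and 14550 in *Smad2/3* cKO, and 16761, 18067, 12614 and 14678 in *Smad2/3* cKO + A83-01. All 12 samples with the inhibitor, the deletion or both lay above all 3 control + vehicle samples, and those 3 groups overlapped each other. *Rrm2* rose 3.56-fold with A83-01 in control organoids (log2 fold change 1.83, SE 0.24, 95% interval 1.29 to 2.38, adjusted p = 0.00348). After deletion it rose 3.89-fold (log2 fold change of 1.96, SE 0.21, 95% interval 1.48 to 2.44, adjusted p = 0.000726). The control + vehicle samples are shared by both comparisons, so the 2 values are not independent. By size of rise *Rrm2* was the 101st of the 155 genes called higher with A83-01 and the 218th of the 536 called higher in *Smad2/3* cKO organoids.

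The call with A83-01 was lost in a fit without the variance trend (adjusted p = 0.0120), without control + vehicle replicate 1 (adjusted p = 0.0231) or replicate 2 (adjusted p = 0.0233), and without control + A83-01 replicate 4 (adjusted p = 0.0133), while the log2 fold change stayed between 1.69 and 2.00 over all samples left out. In *Smad2/3* cKO organoids the call was kept whichever sample was left out, with log2 fold changes of 1.83 to 2.10, and without the replicate that carried macrophage transcripts it was 2.06 (adjusted p = 0.00141). Replicate numbers did not pair these groups, and with them as a block the log2 fold change was 1.89 and the call was lost (adjusted p = 0.0116).

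Adding A83-01 to *Smad2/3* cKO organoids gave a log2 fold change of *Rrm2* of 0.30 (SE 0.19, 95% interval −0.12 to 0.73, adjusted p = 0.994). Between the genotypes under A83-01 it was 0.43 (SE 0.22, 95% interval −0.05 to 0.92, adjusted p = 0.578). Neither passed the threshold, and in these main fits the upper bounds of both intervals were below the lower bounds of the rises over control + vehicle. With the series of label numbers as a covariate, *Rrm2* differed between the genotypes under A83-01 by 0.77 (limma adjusted p = 0.102). Over samples left out that difference was 0.27 to 0.57. The difference between the genotypes in the effect of A83-01, tested as an interaction over all 15 samples, was −1.53 (SE 0.32, 95% interval −2.21 to −0.85, adjusted p = 0.0246), past 0.05 but not past the threshold of 0.01 (at 0.05 it was 1 of 40 members, against 1.59% of all genes). With each sample left out in turn it was −1.69 to −1.39, with adjusted p from 0.00972 without control + A83-01 replicate 2 to 0.0825 without control + vehicle replicate 1. It was −1.48 (adjusted p = 0.0539) with replicate number as a block, −1.31 (adjusted p = 0.0562) with the series of label numbers as a covariate and −1.02 (adjusted p = 0.528) with the label number as a block.

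**Figure D1:**
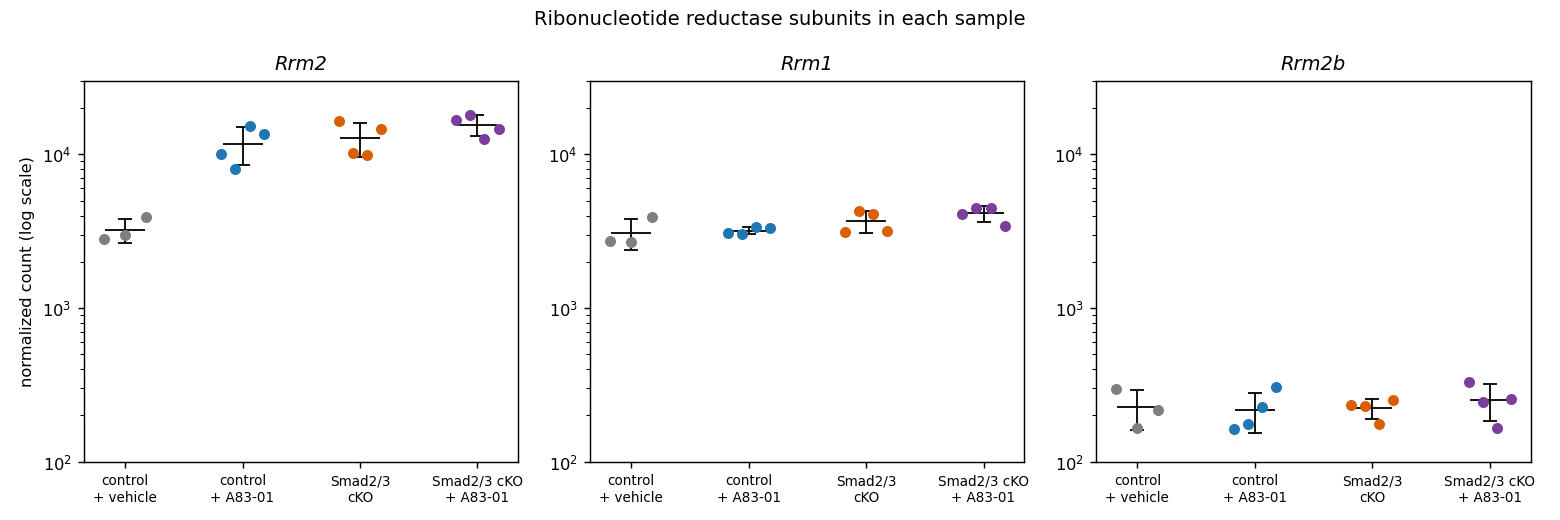
Normalized counts (log axis) of the ribonucleotide reductase genes *Rrm2*, *Rrm1* and *Rrm2b* in the 4 groups, with 1 point per sample, the group mean as a horizontal line and ±1 SD as whiskers. *Rrm2* is lowest in the 3 control + vehicle samples (2799 to 3895) and at 8056 or more elsewhere, whereas for *Rrm1* and *Rrm2b* every other group overlaps control + vehicle.

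The other genes of the enzyme were not called. *Rrm1*, the large subunit, was 2712, 2678 and 3900 in control + vehicle, 3080, 3019, 3362 and 3316 in control + A83-01, 3138, 4257, 4117 and 3190 in *Smad2/3* cKO and 4116, 4472, 4469 and 3439 in *Smad2/3* cKO + A83-01. Its log2 fold change was 0.07 with A83-01 (95% interval −0.32 to 0.45) and 0.26 in *Smad2/3* cKO organoids (95% interval −0.16 to 0.67). Every *Smad2/3* cKO + A83-01 sample lay above every control + A83-01 sample, with a log2 difference of 0.36 (SE 0.13) that did not pass the threshold (adjusted p = 0.405). *Rrm2b*, which encodes a small subunit used outside S phase and is not among the 40 genes, was 165.8 to 296.2 in control + vehicle, and its log2 fold change was −0.06 with A83-01 and 0.01 in *Smad2/3* cKO organoids. The ratio of the normalized count of *Rrm2* to that of *Rrm1*, not corrected for length, was 1.05 ± 0.065 (SD, n = 3) in control + vehicle, 3.64 ± 0.83 (n = 4) in control + A83-01, 3.65 ± 1.46 (n = 4) in *Smad2/3* cKO and 3.80 ± 0.66 (n = 4) with both.

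The promoters of the members were read from RefSeq (GRCm38.p6) as windows of 300 bases, 250 before and 50 after the start, which were found for 34 of the 40 genes. Searched on both strands were the E2F motif (TTTNGCGC or TTGGCGC), the CHR element bound by MuvB (TTTGAA) and the CCAAT box (CCAAT). An E2F motif was found in 4 of 12 S phase genes (33.3%) and 3 of 22 mitosis genes (13.6%), against 3.27% of all 32851 windows. A CHR element was found in 2 of 12 S phase genes (16.7%) and 17 of 22 mitosis genes (77.3%), against 17.9% of all. A CCAAT box was found in 9 of 12 (75%) and 20 of 22 (90.9%), against 37.4%. On the minus strand a CCAAT box reads ATTGG, which can share letters with TTGGCGC. A member counted if any of its windows held the motif, whereas the background counts single windows, so the shares are not the same measure. A match is a string of letters and not a bound site. Shown is the first window listed for each of 4 genes. These are *Rrm2*, the member called, *Rrm1*, its partner that was not, and *Cdk1* and *Cdc20*, mitosis genes that followed the score (r = 0.78 and 0.83). Capitals mark the motifs above on either strand, and each window runs 5′ to 3′ along its gene.
Rrm2: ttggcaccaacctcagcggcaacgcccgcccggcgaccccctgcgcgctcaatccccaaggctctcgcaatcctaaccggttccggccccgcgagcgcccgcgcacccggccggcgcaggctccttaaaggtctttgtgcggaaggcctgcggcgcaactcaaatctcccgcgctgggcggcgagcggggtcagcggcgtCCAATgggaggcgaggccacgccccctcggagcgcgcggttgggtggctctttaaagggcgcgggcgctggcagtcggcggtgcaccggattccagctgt
Rrm1: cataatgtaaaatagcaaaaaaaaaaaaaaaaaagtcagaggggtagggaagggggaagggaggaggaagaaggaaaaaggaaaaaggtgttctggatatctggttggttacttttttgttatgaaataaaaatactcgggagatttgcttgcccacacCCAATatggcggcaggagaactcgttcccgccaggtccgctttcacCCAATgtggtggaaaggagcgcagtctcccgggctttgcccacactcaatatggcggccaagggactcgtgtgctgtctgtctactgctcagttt
Cdk1: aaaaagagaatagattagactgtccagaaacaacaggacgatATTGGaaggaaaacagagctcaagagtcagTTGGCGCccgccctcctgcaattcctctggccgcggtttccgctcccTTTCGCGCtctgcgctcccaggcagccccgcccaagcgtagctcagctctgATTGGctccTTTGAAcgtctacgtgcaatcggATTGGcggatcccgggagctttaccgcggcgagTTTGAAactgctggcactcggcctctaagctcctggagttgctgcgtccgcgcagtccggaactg
Cdc20: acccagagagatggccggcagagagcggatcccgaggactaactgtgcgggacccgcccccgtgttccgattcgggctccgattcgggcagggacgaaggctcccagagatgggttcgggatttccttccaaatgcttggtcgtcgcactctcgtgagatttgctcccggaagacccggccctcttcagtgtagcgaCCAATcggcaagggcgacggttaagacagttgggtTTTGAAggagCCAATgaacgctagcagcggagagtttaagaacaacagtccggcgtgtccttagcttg
These are chr12:24708004-24708303 (plus strand), chr7:102441445-102441744 (plus strand), chr10:69352863-69353162 (minus strand) and chr4:118437294-118437593 (minus strand) in GRCm38. The window of *Rrm2* holds 1 CCAAT box, at base 201, and that of *Rrm1* holds 2, at bases 160 and 206. The window of *Cdk1* holds both E2F forms, at bases 73 and 120, 2 CHR elements, at bases 180 and 236, and 3 CCAAT boxes on the minus strand. The window of *Cdc20* holds a CHR element at base 233 and CCAAT boxes at 198 and 243. *Rrm2* itself lies at chr12:24708241-24714146 on the plus strand.

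**Figure D2:**
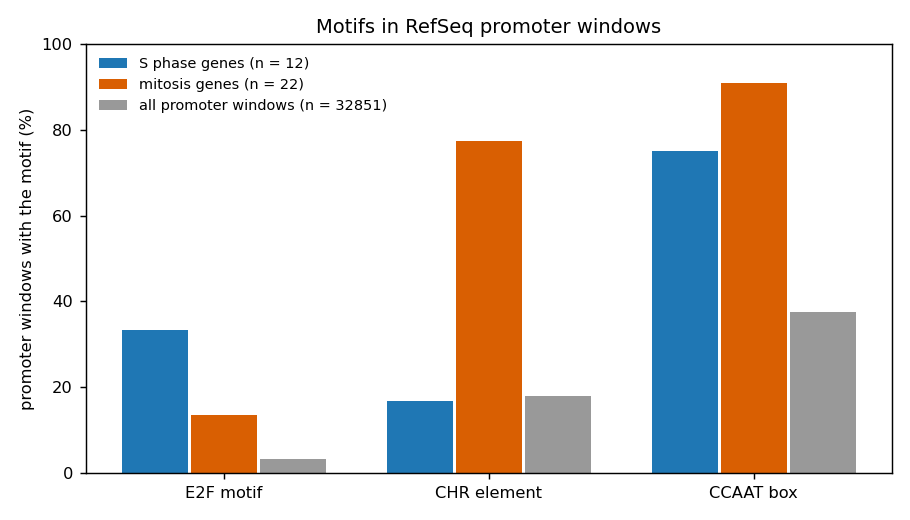
Share (y axis, percent) with an E2F motif, a CHR element or a CCAAT box, for S phase genes (n = 12), mitosis genes (n = 22) and all windows (n = 32851). A gene counted if any of its promoter windows held the motif, and the background counts single windows. CHR elements stand in 77.3% of the mitosis genes and 16.7% of the S phase genes, beside 17.9% of all windows.

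As a set the 40 genes were called at a rate near that of all genes or below it. The call required an adjusted p under 0.01 together with a fold change outside 0.714 to 1.4. With A83-01 in control organoids 1 of 40 was called (2.5%), against 295 of 13009 genes tested (2.27%). For *Smad2/3* cKO organoids it was also 1 of 40, against 970 of 13149 (7.38%). None was called when A83-01 was added to *Smad2/3* cKO organoids, where no gene of 12998 was called (0.0%) and 554 genes (4.26%) but no member had an unadjusted p below 0.05. None was called between the genotypes under A83-01, where 3 of 12915 genes were (0.0232%), and 2 of 40 members had an unadjusted p below 0.05, against 9.52% of all genes. None was called for the interaction, with 72 of 13066 (0.551%).

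The medians of the members lay above those of all genes in the comparisons with control + vehicle. With A83-01 the median log2 fold change of the 40 genes was 0.23, and 34 of 40 were above 0, against a median of −0.02 over all genes tested. Samples left out in turn gave medians of 0.12 (without control + vehicle replicate 1) to 0.36 (without control + vehicle replicate 3). After deletion it was 0.20, with 28 of 40 above 0, against 0.00, and samples left out gave 0.11 (without control + vehicle replicate 1) to 0.35 (without *Smad2/3* cKO replicate 2). These are descriptions of genes measured in the same samples, and no test was made of the set. Groups that did not overlap were found for 7 of 40 members with A83-01 (17.5%, against 21.7% of all genes) and for 6 of 40 in *Smad2/3* cKO organoids (15%, against 30.8%). When A83-01 was added to *Smad2/3* cKO organoids no member had groups apart (2.9% of all genes), and between the genotypes under A83-01 it was 1 member, *Rrm1* (2.5%, against 6.12%).

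**Figure D3:**
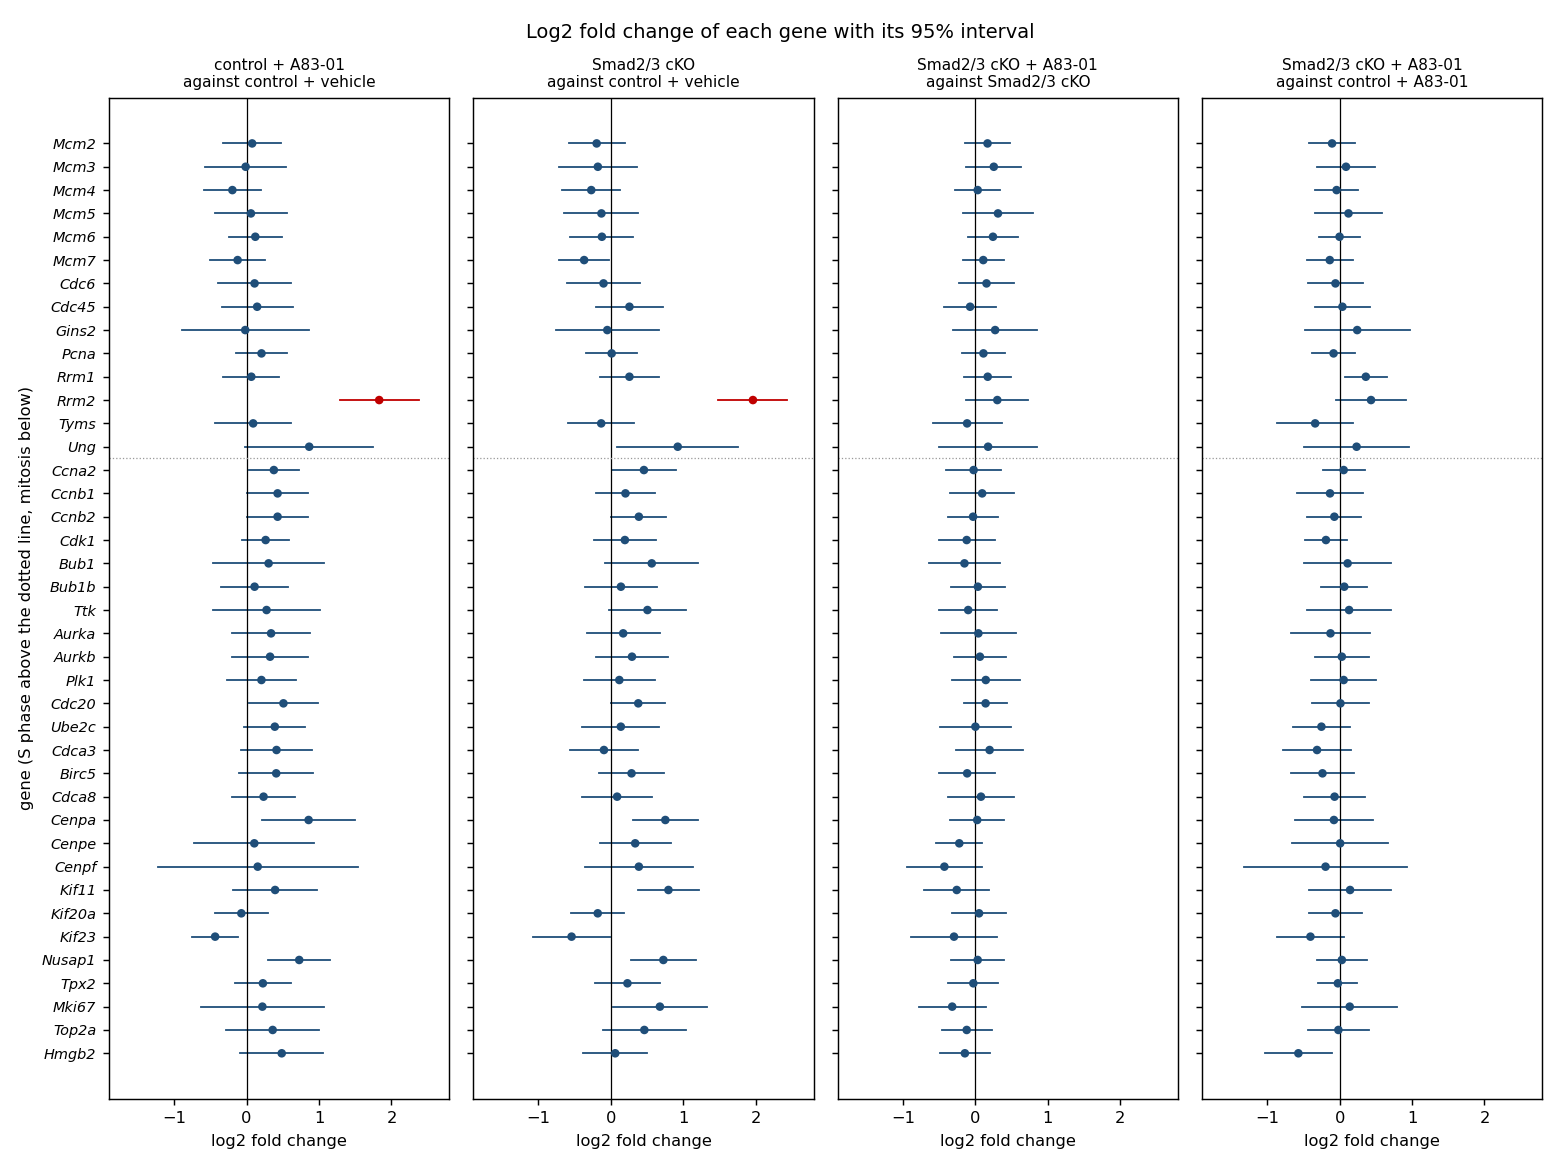
Log2 fold changes (x axis) of the 40 genes with 95% intervals in the 4 comparisons of 2 groups, with S phase genes above the dotted line and mitosis genes below it. Red marks a gene that was called, which is *Rrm2* alone in the comparisons with control + vehicle (1.83 and 1.96) and no gene in the other panels.

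The mean of the log2 values of the 40 genes gives a score per sample. It was 9.83, 9.88 and 10.27 in control + vehicle, 10.27, 10.09, 10.39 and 10.35 in control + A83-01, 10.36, 9.88, 10.32 and 10.35 in *Smad2/3* cKO, and 10.19, 10.39, 10.21 and 10.19 in *Smad2/3* cKO + A83-01. Control + vehicle replicates 1 and 2 were the lowest of all, with *Smad2/3* cKO replicate 2 beside them, and control + vehicle replicate 3 lay among the treated samples. That replicate was the 1 sample of its group in the higher series of label numbers. In control + A83-01 the score was 10.09 to 10.27 in the lower series and 10.35 to 10.39 in the higher. In *Smad2/3* cKO the series overlapped (9.885 to 10.36 and 10.32 to 10.35). Group means were 9.99 ± 0.24 (SD, n = 3), 10.27 ± 0.13 (n = 4), 10.23 ± 0.23 (n = 4) and 10.25 ± 0.10 (n = 4). The pooled SD within groups was 0.18, and every pair of groups compared overlapped. Within the 3 pairs of control samples that share a label number the score was higher with A83-01 each time (9.83 and 10.27, 9.88 and 10.09, 10.27 and 10.39). No test was made of the score within pairs. Members higher in each pair include *Ccnb1*, *Cdc20* and *Cenpa*, and *Kif23* and *Mcm4* were lower in each. The share of all genes with the same direction in each pair was not counted. In alternatives other than samples left out, the label number block among them, limma adjusted p was 0.0821 to 0.277 for *Cdc20* and 0.0246 to 0.173 for *Cenpa*. Neither gene passed the threshold. The difference in score from control + vehicle was 0.28 with A83-01 and 0.23 in *Smad2/3* cKO organoids, or 0.24 and 0.19 without *Rrm2*. Without the *Smad2/3* cKO replicate that carried macrophage transcripts the latter difference was 0.35, without control + vehicle replicate 3 it was 0.37, and without control + vehicle replicate 1 it was 0.15. The difference with A83-01 was 0.20 without control + vehicle replicate 1 and 0.42 without replicate 3, and in the latter case control + vehicle (9.83 and 9.88) no longer overlapped control + A83-01. *Smad2/3* cKO organoids were also apart from control + vehicle without *Smad2/3* cKO replicate 2 (10.32 to 10.36 against 9.83 to 10.27), and, by less than 0.01, without control + vehicle replicate 3. Between *Smad2/3* cKO organoids with and without A83-01 the score differed by 0.02, and by −0.10 without that same replicate.

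**Figure D4:**
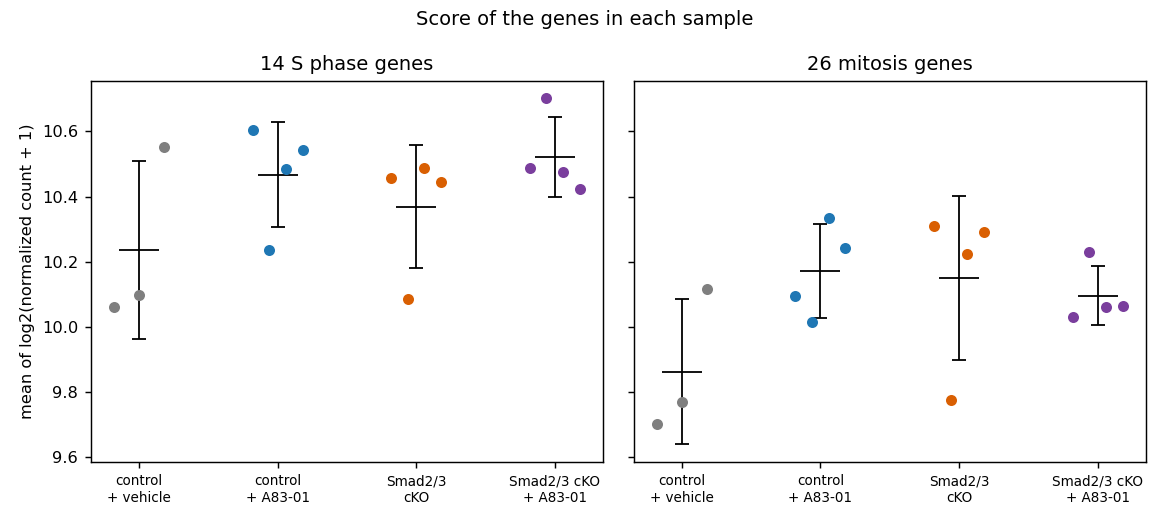
Mean of log2(normalized count + 1) over the 14 S phase genes (left) and the 26 mitosis genes (right) in each sample, with the group mean as a horizontal line and ±1 SD as whiskers. The groups overlap in both panels, and the lowest samples are control + vehicle replicates 1 and 2 and *Smad2/3* cKO replicate 2.

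The genes of origin licensing and the helicase stayed close to control + vehicle. These are *Mcm2* to *Mcm7*, the subunits of the helicase, *Cdc6*, which loads it, and *Cdc45* and *Gins2*, which join it when it starts. None of the 9 was called in any comparison, and all 9 intervals lay within 1 of 0 on the log2 scale in each of the 4 comparisons. With A83-01 their median log2 fold change was 0.06, with 5 above 0. After deletion it was −0.13, with 8 of 9 below 0. *Mcm2* was 2250, 2464 and 3342 in control + vehicle, 3014, 2426, 2871 and 2893 in control + A83-01, 2405, 1894, 2537 and 2458 in *Smad2/3* cKO and 2447, 3093, 2627 and 2287 in *Smad2/3* cKO + A83-01. *Mcm5* was 1995, 1767 and 2835, then 2463, 1819, 1995 and 2847, then 2368, 1378, 2266 and 2025, and then 2275, 3446, 2396 and 1903 in the same order. *Cdc6* was 400.9, 457.4 and 651.8, then 619.8, 523.7, 547.9 and 450.0, then 488.4, 357.3, 544.5 and 466.4, and then 559.7, 563.9, 488.6 and 442.5. Over the 9 genes the log2 fold changes ran from −0.20 (*Mcm4*) to 0.15 (*Cdc45*) with A83-01 and from −0.37 (*Mcm7*) to 0.26 (*Cdc45*) after deletion. For *Mcm2*, *Mcm5* and *Cdc6* control + vehicle replicate 3 was the highest of its group and *Smad2/3* cKO replicate 2 the lowest of its group.

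The other genes of nucleotide supply and DNA synthesis were mixed. *Pcna* was 1642, 1411 and 1440 in control + vehicle, 2037, 1736, 1558 and 1604 in control + A83-01, 1565, 1183, 1604 and 1727 in *Smad2/3* cKO and 1538, 1687, 1583 and 1707 in *Smad2/3* cKO + A83-01. Its log2 fold change was 0.21 with A83-01 and 0.01 in *Smad2/3* cKO organoids, and the groups overlapped. *Tyms*, which encodes thymidylate synthase, was 1380, 1127 and 1526, then 1948, 1026, 1299 and 1569, then 1276, 868.0, 1480 and 1332, and then 844.8, 1443, 1308 and 1002 in the same order of groups. *Ung*, which encodes the glycosylase that removes uracil from DNA, was 27.62, 41.72 and 51.39, then 90.23, 55.85, 88.56 and 59.72, then 85.12, 75.99, 54.19 and 89.41, and then 93.64, 72.65, 62.18 and 121.7. *Ung* lay higher in every sample of the 3 other groups than in control + vehicle, and its log2 fold changes of 0.86 (SE 0.39, adjusted p = 0.238) and 0.92 (SE 0.37, adjusted p = 0.114) did not pass the threshold.

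Genes of the cyclins and CDK1 lay above control + vehicle by less than 0.5 on the log2 scale, and none was called. *Ccna2* was 1232, 1406 and 1503 in control + vehicle, 1817, 1660, 2025 and 1667 in control + A83-01, 2304, 1336, 1934 and 2128 in *Smad2/3* cKO and 1779, 2096, 1778 and 1795 in *Smad2/3* cKO + A83-01. *Ccnb1* was 1985, 1920 and 2149, then 3189, 2039, 2604 and 3200, then 2774, 1671, 2545 and 2443, and then 2145, 3386, 2486 and 2079 in the same order. *Cdk1* was 1504, 1572 and 1714, then 2071, 1722, 1971 and 1908, then 2140, 1272, 2026 and 2000, and then 1476, 1809, 1620 and 1837. Control + A83-01 and control + vehicle did not overlap for *Ccna2* (log2 fold change 0.38, adjusted p = 0.183) and *Cdk1* (0.26, adjusted p = 0.321), higher with the inhibitor, but overlapped for *Ccnb1*. Replicate 2 of *Smad2/3* cKO lay among or below the control + vehicle samples for all 3 genes.

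The 6 mitotic kinase and checkpoint genes among the 40 members were not called in any comparison. *Plk1*, which encodes a kinase of mitotic entry and spindle assembly, was 1282, 1302 and 1818 in control + vehicle, 2215, 1361, 1592 and 1619 in control + A83-01, 2010, 1109, 1718 and 1582 in *Smad2/3* cKO and 1496, 2382, 1714 and 1485 in *Smad2/3* cKO + A83-01. All groups overlapped for it. The 6 genes of the list, *Bub1*, *Bub1b*, *Ttk*, *Aurka*, *Aurkb* and *Plk1*, had a median log2 fold change of 0.29 with A83-01 and 0.23 in *Smad2/3* cKO organoids, the highest being *Bub1* at 0.56 in the latter. *Cdc20*, which encodes the activator of the ubiquitin ligase APC/C, was 2325, 2231 and 3120, then 4425, 2723, 3322 and 4195, then 3498, 2672, 3672 and 3398, and then 3444, 4133, 3779 and 3223 in the order of groups above. Its log2 fold change with A83-01 was 0.51 (SE 0.21, adjusted p = 0.199), and the groups overlapped. *Ube2c*, which encodes the ubiquitin-conjugating enzyme of the same ligase, and *Cdca3* had log2 fold changes of 0.39 and 0.41 with A83-01 and of 0.14 and −0.10 in *Smad2/3* cKO organoids.

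After *Rrm2* and *Ung*, *Cenpa* and *Nusap1* with A83-01, and these and *Kif11* after deletion, had the largest log2 fold changes over control + vehicle. All are genes of the kinetochore and spindle list, whose median was 0.23 with A83-01 and 0.31 after deletion. *Cenpa*, which encodes the histone variant that marks centromeres, was 1125, 796.0 and 1248 in control + vehicle, 2058, 1170, 1952 and 2658 in control + A83-01, 1929, 1350, 1794 and 1996 in *Smad2/3* cKO and 1405, 2121, 1769 and 1906 in *Smad2/3* cKO + A83-01. *Nusap1*, which encodes a protein of spindle microtubules, was 394.7, 425.5 and 578.7, then 791.9, 700.3, 795.4 and 763.2, then 901.7, 625.6, 693.8 and 853.2, and then 947.5, 792.9, 684.3 and 713.2 in the same order. *Kif11*, which encodes the motor that pushes spindle poles apart, was 411.9, 435.5 and 528.1, then 463.2, 732.8, 813.0 and 467.6, then 805.3, 647.3, 759.2 and 990.4, and then 927.1, 522.1, 604.8 and 658.4. After deletion all 3 lay above control + vehicle in every sample, with log2 fold changes of 0.75 (SE 0.20, adjusted p = 0.0299), 0.72 (SE 0.20, adjusted p = 0.0352) and 0.79 (SE 0.18, adjusted p = 0.0179). At an adjusted p below 0.05 these 3 and *Rrm2* were called, 4 of 40 members, against 18.4% of all genes. With samples left out in turn the adjusted p reached 0.0958 for *Cenpa*, 0.123 for *Nusap1* and 0.0688 for *Kif11*. Over the other alternatives it reached 0.0639, 0.115 and 0.0650 in the same order. The calls of these 3 at 0.05 thus did not hold in every fit. *Nusap1* was also higher in every sample with the inhibitor, the deletion or both than in control + vehicle. With A83-01 in control organoids the values were 0.86 (adjusted p = 0.109), 0.73 (adjusted p = 0.0534) and 0.39 (adjusted p = 0.422).

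The other members of this list were *Birc5* and *Cdca8*, of the passenger complex that corrects attachments, *Cenpe* and *Kif20a*, which encode motors, *Tpx2*, which encodes an activator of Aurora A, and *Cenpf*. None of them was called. With A83-01 their log2 fold changes ran from −0.07 (*Kif20a*) to 0.41 (*Birc5*). After deletion they ran from −0.18 (*Kif20a*) to 0.39 (*Cenpf*), with *Cenpe* next at 0.34.

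*Kif23*, which encodes a motor of the midzone at the end of mitosis, lay in the other direction. It was 1475, 1571 and 1463 in control + vehicle, 1091, 1045, 1095 and 1224 in control + A83-01, 1280, 644.9, 1315 and 1040 in *Smad2/3* cKO and 745.2, 1297, 776.9 and 666.0 in *Smad2/3* cKO + A83-01. All 12 samples with the inhibitor, the deletion or both lay below the 3 control + vehicle samples, and it was the only member with groups apart in this direction in the comparisons with control + vehicle. Its log2 fold changes of −0.43 (SE 0.14, adjusted p = 0.106) and −0.54 (SE 0.24, adjusted p = 0.143) did not pass the threshold.

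Of the genes often used to count cycling cells, *Mki67* had an SD within groups of 0.48 on the log2 scale, *Top2a* of 0.34 and *Hmgb2* of 0.30, beside 0.36 at the median of all genes. *Mki67*, which encodes Ki-67, was 699.6, 692.0 and 1466 in control + vehicle, 588.1, 1044, 1589 and 1188 in control + A83-01, 1181, 1205, 1514 and 1918 in *Smad2/3* cKO and 1252, 813.2, 1372 and 1224 in *Smad2/3* cKO + A83-01. *Top2a*, which encodes topoisomerase II alpha, was 933.7, 1612 and 2041, then 1442, 1695, 2398 and 2073, then 2209, 1578, 2035 and 2264, and then 2189, 1548, 1739 and 1966 in the same order. *Hmgb2*, which encodes a chromatin protein of dividing cells, was 1170, 989.0 and 1625, then 2070, 1263, 1504 and 2271, then 1063, 1324, 1546 and 1257, and then 1039, 1428, 1081 and 1147. The groups overlapped for all 3 genes in each comparison. *Mki67* had a log2 fold change of 0.22 with A83-01 (95% interval −0.63 to 1.06) and of 0.68 in *Smad2/3* cKO organoids (95% interval 0.03 to 1.33, adjusted p = 0.134). In the main fit *Hmgb2* had the largest difference between the genotypes under A83-01, −0.57 (SE 0.21, adjusted p = 0.407). With the series of label numbers as a covariate that of *Rrm2* was larger (0.77).

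When A83-01 was added to *Smad2/3* cKO organoids, all 40 members had a 95% interval within 1 of 0 on the log2 scale, against 70.9% of all genes tested. In the main fit the largest log2 fold changes were those of *Cenpf* (−0.43, SE 0.23), *Mki67* (−0.32, SE 0.21), *Mcm5* (0.31), *Rrm2* (0.30) and *Kif23* (−0.29), each with an adjusted p of 0.994. This order changed with the processing. Over alternatives other than samples left out, *Cenpf* ran from −0.43 to −0.07, *Mki67* from −0.32 to −0.06 and *Kif23* from −0.30 to −0.11. *Mcm5* ran from 0.29 to 0.44 and *Rrm2* from 0.22 to 0.30. *Cenpf* was 397.2, 428.9, 672.7 and 686.6 without and 350.1, 334.1, 402.3 and 511.6 with the inhibitor. The main fit took the samples as unpaired. Over all genes, each sample with the inhibitor deviated from its group mean together with 1 sample without it (r = 0.355 to 0.394). Members with an interval within 1 numbered 30 of 40 with A83-01 in control organoids (49.4% of all genes), 29 of 40 in *Smad2/3* cKO organoids (51.8%) and 38 of 40 between the genotypes under A83-01 (63.3%). A p that misses the threshold does not show that the groups are alike, and these intervals give the size of change still open to each gene.

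In the interaction, which asks whether A83-01 acted differently in the 2 genotypes, mitosis members were mostly below 0 and the licensing genes mostly above it. Of the 26 mitosis genes 24 were below 0, with a median of −0.38. Of the 9 genes of licensing and the helicase 8 were above 0, with a median of 0.23, whereas 4 of the 5 genes of nucleotide supply and DNA synthesis and 47 of the 57 other S phase genes (median −0.26) were below 0. The median over all genes tested was 0.00. After *Rrm2* the largest values were those of *Cenpa* (−0.83, SE 0.34), *Nusap1* (−0.69, SE 0.24), *Ung* (−0.69, SE 0.46) and *Kif11* (−0.65, SE 0.33), with adjusted p from 0.181 to 0.566. All of these share the 3 control + vehicle samples. Over alternatives other than samples left out, the value of *Nusap1* ran from −0.74 to −0.13. That of *Cenpa* ran from −0.83 to −0.57 and that of *Ung* from −0.86 to −0.58. With the label number as a block the median over the 40 genes was 0.0033 in place of −0.28, and *Kif11* turned to 0.0043. In the labels 1 number stands on both control and *Smad2/3* cKO samples, so a shared number is not always a shared mouse. Between the *Smad2/3* cKO groups only 1 number is shared, by the library that carried macrophage transcripts and *Smad2/3* cKO + A83-01 replicate 1.

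Beyond the 40 genes, other genes of the same processes were counted from lists of 57 S phase genes, 72 mitosis genes, 20 genes of the E2F, RB, MuvB, B-MYB and FOXM1 regulators and 17 genes of G1 cyclins, kinases and inhibitors. With A83-01 in control organoids none was called, and the medians were 0.24, 0.34, 0.14 and −0.10. In *Smad2/3* cKO organoids 1 gene of each list was called higher, 3 of the last list were called lower (1.75%, 1.39%, 5.26% and 23.5% of the genes tested, against 7.38% of all genes), and the medians were 0.22, 0.40, 0.11 and −0.45. None was called in the other comparisons or the interaction. Of the 20 regulators 19 passed the filter on low values, and all other listed genes passed except 1 of G1 when A83-01 was added to *Smad2/3* cKO organoids.

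The S phase gene called was *Pole*, which encodes the catalytic subunit of the leading-strand polymerase. It was 355.2, 320.8 and 826.9 in control + vehicle and 2845, 1702, 1347 and 3623 after deletion (log2 fold change of 2.27, SE 0.41, adjusted p = 0.00622). In control + A83-01 it was 1046, 906.6, 1964 and 3392 (log2 fold change 1.80, SE 0.49, adjusted p = 0.0615). All 12 samples with the inhibitor, the deletion or both were above control + vehicle, the same order as for *Rrm2*, whereas *Pole2*, an accessory subunit of that polymerase, had log2 fold changes of 0.34 and 0.46 that did not pass the threshold.

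The mitosis gene called was *Mad2l1*, which encodes the checkpoint protein MAD2. It was 1043, 1366 and 1651 in control + vehicle, 2362, 3048, 2826 and 2132 in control + A83-01, 3050, 2637, 2743 and 3753 in *Smad2/3* cKO and 4116, 2582, 2525 and 3624 in *Smad2/3* cKO + A83-01. It rose by 1.18 on the log2 scale in *Smad2/3* cKO organoids (SE 0.19, adjusted p = 0.00387), and its log2 fold change with A83-01 was 0.95 (SE 0.20, adjusted p = 0.0266). Among the regulators *E2f5*, which encodes a partner of the RB family in quiescent cells, was 405.0, 494.4 and 500.8 in control + vehicle and 975.4, 840.7, 805.8 and 1209 after deletion (log2 fold change of 1.02, SE 0.18, adjusted p = 0.00605). The groups did not overlap for either gene in the comparisons with control + vehicle.

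Of the G1 genes *Cdkn2c*, which encodes the CDK4/6 inhibitor p18, rose in *Smad2/3* cKO organoids, while *Ccnd2* (cyclin D2), *Myc* and *Cdk4* fell. *Ccnd2* was 2559, 934.1 and 454.4 in control + vehicle, 300.4, 302.0, 40.70 and 63.73 in control + A83-01 and 27.65, 122.9, 120.6 and 35.37 in *Smad2/3* cKO, so the groups did not overlap (log2 fold change −4.03, SE 0.69, adjusted p = 0.00520 after deletion). *Myc*, which encodes a transcription factor of cell growth, was 2853, 2676 and 2288 in control + vehicle and 1695, 1325, 1641 and 1314 in *Smad2/3* cKO (log2 fold change −0.81, SE 0.15, adjusted p = 0.00675). *Cdkn2c* was 119.4, 128.4 and 144.6 against 297.8, 294.9, 229.0 and 329.2 (log2 fold change 1.12, SE 0.22, adjusted p = 0.00887). *Cdk4*, named because it completes the count, was 8315, 7643 and 7577 against 4639, 5196, 5125 and 4569 (log2 fold change −0.69, SE 0.12, adjusted p = 0.00494). None of these genes had overlapping groups here. The calls of *Pole*, *Mad2l1*, *E2f5*, *Cdkn2c*, *Ccnd2*, *Myc* and *Cdk4* were lost without control + vehicle replicate 1 or 2 or without *Smad2/3* cKO replicate 1 or 4, with adjusted p between 0.0107 and 0.0360 over all samples whose loss ended a call. Without *Smad2/3* cKO replicate 2 the calls of *Pole* (adjusted p = 0.0110), *E2f5* (0.0108), *Cdkn2c* (0.0235) and *Myc* (0.0168) were lost too, and those of *E2f5*, *Cdkn2c*, *Myc* and *Cdk4* were also lost without control + vehicle replicate 3. Without the variance trend the calls of *Pole* (adjusted p = 0.0224), *Mad2l1* (0.0157), *E2f5* (0.0168), *Ccnd2* (0.0185), *Myc* (0.0224) and *Cdk4* (0.0172) were lost, with all 4 groups in 1 fit those of *Myc* (0.0124) and *Cdk4* (0.0147), without a filter on low values that of *Cdkn2c* (0.0115), and with the series of label numbers as a covariate those of *Cdkn2c* (0.0139) and *Myc* (0.0101).

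Over the 15 samples the members varied together to different degrees. The correlation of each gene with the mean of the other 39 had a median of 0.63, and 23 of 40 were above 0.5. It was highest for *Tpx2* (0.89), *Ccnb2* (0.88), *Ccna2* (0.87) and *Aurkb* (0.85), all of mitosis, and lowest for *Kif23* (0.02), *Bub1* (0.08), *Mcm4* (0.21) and *Mcm7* (0.23). The points share libraries and size factors, and the values are descriptions. Outside the 40 genes the 10 most like the score were *Kif22* (r = 0.91), *Asf1b* (0.90), *Rfc4* (0.89), *Nasp* (0.88), *St3gal6* (0.87), *Mtfp1* (0.87), *Rrad* (0.87), *Snx9* (0.86), *Adora2b* (0.85) and *Uhrf1* (0.85). Of these *Kif22* was on the list of other mitosis genes, and *Rfc4*, *Nasp* and *Uhrf1* were on that of other S phase genes.

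Part of the variation between samples, within and between groups together, followed transcript length. In control + A83-01 replicate 1 the rank correlation between a gene's log2 difference from its mean over 15 samples and the length of its longest transcript was −0.69 over the 40 members and −0.49 over 12569 genes. In *Smad2/3* cKO + A83-01 replicate 2 it was −0.54 and −0.26. In control + vehicle replicate 3 it was 0.47 and 0.15. Trends were not confined to these samples: control + A83-01 replicate 4 had −0.26 and −0.34, and replicate 2 of that group 0.44 and 0.25. Thus the 10 members with the longest transcripts (3997 to 11130 bases, *Cenpf*, *Mki67*, *Cenpe* and *Top2a* the longest) were 0.39 below their mean in control + A83-01 replicate 1, while the 10 with the shortest (1466 to 2143 bases, *Cenpa*, *Pcna* and *Ccnb2* the shortest) were 0.42 above theirs. *Cenpf* was 146.8 in that sample and 487.7, 1139 and 505.1 in the others of its group. When the trend of each sample on length was taken out, an alternative chosen after seeing the data, *Rrm2*, whose longest transcript has 2193 bases, kept its call in both comparisons with control + vehicle (log2 fold changes 1.79 and 1.99, adjusted p = 0.00356 and 0.000763).

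**Figure D5:**
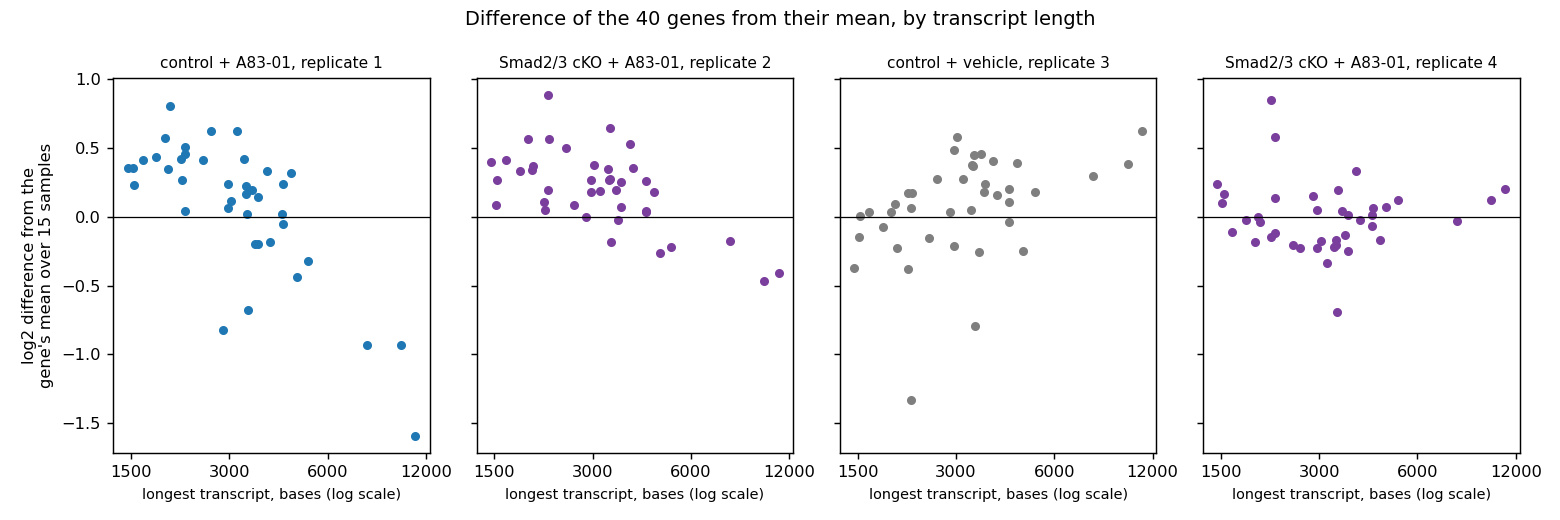
Log2 difference of the 40 genes from their mean over 15 samples (y axis) against the length of the longest transcript in bases (log x axis) in 4 samples. Long transcripts are low in control + A83-01 replicate 1 and *Smad2/3* cKO + A83-01 replicate 2 (rank correlations −0.69 and −0.54) and high in control + vehicle replicate 3 (0.47), with no trend in *Smad2/3* cKO + A83-01 replicate 4 (0.00080).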

How the data were processed

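The authors made cDNA from organoid RNA with a low-input kit, estimated counts with Salmon 1.4.0 on GRCm39 and normalized them for DESeq2 1.32.0. The deposited signal, a normalized count, is the estimated count over 1 size factor per sample: the median ratio to the geometric mean over 12745 genes was 1.01137 in all 15 samples. Raw depth and whole reads were not recovered, so count models were not used. Samples of a group carry different numbers in the labels.

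Each pair of groups was fitted with limma 3.58.1 (eBayes with trend, R 4.3.3) on log2(normalized count + 1), keeping genes whose mean in the compared samples reached 10, and the interaction over all 15 samples. P-values were adjusted (Benjamini-Hochberg) over all genes tested. Fold changes are on this log2 scale, which understates low genes. Intervals are 95%. The fits were tested on simulated data. The members and lists were chosen with earlier results of these data known. Named are all members by their lists, 12 fixed members and the 5 largest changes per comparison with values per sample, listed genes that were called (at most 3 a list), and the 10 genes most like the score.

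Replicate numbers 1 to 3 of the control groups carry the same label numbers (367, 368, 395), and these pairs deviated together (r = 0.423, 0.409 and 0.354). With that block 399 genes were called in place of 295 (246 shared), and *Rrm2* kept its call. Alternatives changed the pseudocount, filter, scaling, threshold, trend, covariates and samples. Positions and lengths are from GENCODE vM21 and RefSeq (GRCm38), not the authors' build.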

Additional observations from a re-analysis of the deposited data

Results flagged for a closer look

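In 111 groups of 4 samples, 15 values lay far from the other 3 of their group (gap over range above Dixon's critical value for 4 samples). Chance flags about 1 in 20 such groups.

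*Smad2/3* cKO replicate 2 was low in the genes of S phase and mitosis. Its score was 9.885 where the others of its group were 10.32 to 10.36. Its S phase score was 10.09 (others 10.45 to 10.49), its mitosis score 9.776 (others 10.23 to 10.31) and its *Cdk1* 1272 (others 2000 to 2140). The same sample was high in the macrophage genes *Lyz2* (3372, others 0.9402 to 86.86), *Adgre1* (350.8, others at most 7.76) and *Cd52* (112.4, others 2.238 to 7.209). Whether the low scores and these transcripts are related was not tested.

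*Smad2/3* cKO + A83-01 replicate 2 was high in the score of all 40 genes (10.39, others 10.19 to 10.21), in the mitosis score (10.23, others 10.03 to 10.06) and in *Ccna2* (2096, others 1778 to 1795). It was high in *Smad2* (1211, others 803.6 to 854.2) and low in *Smad3* (796.8, others 1648 to 1689). It is also the sample of its group in which short transcripts were high, and the part of this was not tested.

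Macrophage genes close to 0 were flagged too. *Lyz2* was 15.15 in control + A83-01 replicate 1 (others 5.244 to 6.571) and *Adgre1* was 9.006 there (others at most 0.9692). In *Smad2/3* cKO + A83-01 replicate 1 *Adgre1* was 1.082, with the others at 0.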

How the results depend on the processing

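Of the alternatives to the values that answer a comparison, 330 kept direction and side of the threshold, 31 no longer passed it or gave a clearly smaller count, 11 passed it or gave a clearly larger count, and 1 moved. When A83-01 was added to *Smad2/3* cKO organoids no gene was called under any alternative run. Each alternative moved a difference in member score by less than the pooled SD within groups.

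With A83-01 in control organoids 295 genes were called. An adjusted p below 0.05 gave 955, all 4 groups in 1 fit 655, the series of label numbers as a covariate 443, and samples left out in turn 49 to 312, lowest without control + vehicle replicate 2 (49) or replicate 1 (53), then without control + A83-01 replicate 4 (116), control + vehicle replicate 3 (128) or control + A83-01 replicate 3 (140). The number of members called, 1, became 0 without the trend, and 0 to 1 over samples left out.

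In *Smad2/3* cKO organoids 970 genes were called. An adjusted p below 0.05 gave 2413 genes and 4 members, no trend gave 452 genes, and samples left out gave 280 to 992. The lowest were without control + vehicle replicate 1 (280) or 2 (288) and *Smad2/3* cKO replicate 4 (443) or 1 (524). Between the genotypes under A83-01 the 3 genes called became 5 with all groups in 1 fit, 1 without the trend, 72 with the series of label numbers, and 0 to 4 over samples left out. For the interaction 72 genes became 208 at an adjusted p below 0.05 and 39 to 77 over samples left out, and members called, 0, became 1 at an adjusted p below 0.05 and 0 to 1 over samples left out. With the label number as a block no gene was called, the median of the members was 0.0033 in place of −0.28, and *Kif11* was 0.0043 in place of −0.65. The causes were not tested.

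Pairing by replicate number held for the control groups only, where the block left the number of members called at 1. Elsewhere the replicate block gave 211 genes and 0 members in *Smad2/3* cKO organoids (*Rrm2* 1.89, adjusted p = 0.0116; it also ended the calls of the 7 listed genes tested, with adjusted p of 0.0247 to 0.0608) and 0 genes between the genotypes under A83-01. With the trend on transcript length also removed, an alternative chosen after seeing the data, the replicate block gave 473 genes with A83-01 in control organoids, 228 genes and 0 members in *Smad2/3* cKO organoids, and 0 genes between the genotypes under A83-01. A block of label numbers could not be fitted for the other 3 pairs of groups.

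Raw depth was not recovered, so the counting error of low genes such as *Ung* is unknown.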
